A study of Sus scrofa with 24 samples.

Results

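Myosin heavy chains are the motor proteins of the thick filament, and the isoform a muscle fibre makes is what its type is named after. MYH7 is the slow heavy chain of type I fibres and of the heart's ventricle, and MYH2 is the fast heavy chain of type IIa fibres. In mammals the developmental chains MYH3 and MYH8 are followed by adult chains, of which MYH1 and MYH4 belong to the IIx and IIb fibres. Of the 6 heavy chain genes asked for, MYH2 and MYH7 each had 1 probe set whose platform annotation names that gene alone. MYH1, MYH3, MYH4 and MYH8 are not analysed here. The 2 probe sets were followed among 23935 tested probe sets, of which 10069 carry a single symbol and stand for 6765 genes.

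The arrays were Affymetrix Porcine Genome arrays of offspring of German Landrace gilts, pigs that all received a high protein diet in gestation, so no diet was compared. The 4 stages, of 6 animals each, were a fetal one at 94 dpc, days after conception, and postnatal ones at 1, 28 and 188 dpn, days after birth. The design text gives 3 gilts for each stage. Which animals shared a mother is not stated, so the p-values treat littermates as independent and are too small by an unknown amount. The labels give liver as the tissue and the series title muscle. The median of the 9 measured of 12 skeletal muscle markers lay at percentile 99.28 to 99.85 of probe sets over the 24 arrays, and none of the 9 was under the background level of 74.7.

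Liver markers, 14 of 15 measured, differed between animals: at 188 dpn animals 1, 2 and 3 had summed signals of 280946, 226569 and 48238, while the other 3 had 1397 to 2533. Over the younger stages the sum ran between 3053 and 62831. Connective tissue markers, 4 of 6 measured, summed to 31394 to 36747 at 94 dpc, 16244 to 44646 at 1 dpn, 13758 to 22050 at 28 dpn and 10788 to 17385 at 188 dpn. No marker was at 0 in any array. The 5′ to 3′ signal ratio of the elongation factor control EF1A, a sign of RNA quality, ran between 0.512 and 1.05 except in newborn animals 1, 2 and 3, which had 0.135, 0.105 and 0.0963. Results are therefore also given without these 3 arrays and without animals 1, 2 and 3 of 188 dpn.

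MYH7 and MYH2 stepped up at different times. MYH7 was 2.03-fold higher at 1 dpn than at 94 dpc, and no later step was called. MYH2 was not called across birth and was 9.15-fold higher at 28 dpn than at 1 dpn, with no call from there to 188 dpn. In whole tissue, fewer fibres of a type and less RNA in each fibre cannot be told apart.

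MYH7, the slow chain, spanned 21165 to 26365 at 94 dpc with a median of 24483, in scaled signal intensity. At 1 dpn it spanned 42383 to 62240 with a median of 44090, at 28 dpn 45850 to 62085 with a median of 51389, and at 188 dpn 36208 to 55139 with a median of 51481. Every postnatal array lay above every fetal array, while the 3 postnatal stages overlapped. Geometric means were 23969, 48698, 52058 and 49012 in order of age, with SDs of 0.14, 0.27, 0.14 and 0.23 in log2 (n = 6 each).

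At 1 dpn animals 3 and 6 stood highest for MYH7 with 62240 and 61338, and the other 4 newborns had 42383 to 44331. Its rank from the brightest probe set of the array was 39 and 35 in those 2 newborns and 85 to 92 in the others. Their liver marker sums were 42098 and 26113, with 3053 to 25013 in the others, and the part of that signal in MYH7 was not tested. At 188 dpn animal 2 stood lowest with 36208, against 48705 to 55139 in the other 5, and it is 1 of the 2 arrays with the highest liver marker sum. The part of that liver signal in the low MYH7 value was not tested.

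The step of MYH7 across birth was 1.02 ± 0.14 in log2 (1 dpn minus 94 dpc, SE, n = 6 per stage, adjusted p = 1.17e-05, limma). Over all probe sets 10.1% were called higher and 20.8% lower in this comparison, 5.05% had all 6 newborn arrays above all 6 fetal ones, and the median difference was -0.15. Quantile normalization, which gives every array the same distribution, left 0.40 ± 0.11 (adjusted p = 0.00874), and centring each array on its median gave 1.35. The brightest probe set of an array, a mark of the top of its scale, was at 40623 to 58582 at 94 dpc and at 72099 to 101178 in the postnatal arrays. By rank, which no scaling changes, MYH7 was at 35 to 92 at 1 dpn and at 115 to 143 at 94 dpc, so the 2 stages did not overlap there either. Without the 3 newborn arrays of low 5′ signal the difference was 1.02. The newborn arrays kept there had EF1A ratios of 0.670 to 0.703, still below the 0.988 to 1.05 of 94 dpc, and the part of this was not tested. The summed signal of the 9 skeletal muscle markers, a list without MYH7, was 144721 to 223905 at 94 dpc, 331779 to 420071 at 1 dpn, 399957 to 541582 at 28 dpn and 347620 to 472472 at 188 dpn. These sums also did not overlap across birth, and their part in the MYH7 step was not tested.

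After birth MYH7 differed by 0.10 between 28 dpn and 1 dpn (95% interval -0.20 to 0.39, adjusted p = 0.701, limma). The difference between 188 dpn and 28 dpn was -0.09 (-0.38 to 0.21, adjusted p = 0.768, limma), and between 188 dpn and 1 dpn it was 0.01 (-0.29 to 0.30, adjusted p = 0.97, limma). Against 94 dpc the gene was 2.17-fold higher at 28 dpn (1.12 ± 0.14, adjusted p = 3.71e-06, limma) and 2.04-fold higher at 188 dpn (1.03 ± 0.14, adjusted p = 3.36e-06, limma). Called higher in these 2 comparisons were 10.4% and 12.5% of all probe sets, and 8.17% and 9.58% had all 6 postnatal arrays above all 6 fetal ones. With quantile normalization the 2 differences were 0.59 and 0.54. The order of levels was thus 94 dpc lowest, with the postnatal stages not separable by their spread.

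Cardiac muscle also makes MYH7. Of the cardiac marker list 4 of 7 genes were measured, and their summed signal was 317 to 608 at 94 dpc, 297 to 822 at 1 dpn, 240 to 639 at 28 dpn and 267 to 547 at 188 dpn. The natriuretic peptide gene NPPA and the transcription factor GATA4 had geometric means under background at all stages. The natriuretic peptide gene NPPB had 84.2, 47.6, 100.4 and 47.5 in order of age, above background at 94 dpc and 28 dpn, and the cardiac troponin I gene TNNI3 had 213 to 309.

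MYH2, the fast IIa chain, was low and uneven up to 1 dpn. At 94 dpc its signal was 18420, 3502, 5967, 14777, 4818 and 7934 in animals 1 to 6. At 1 dpn it was 5251, 8786, 11180, 11284, 18637 and 1851 in animals 1 to 6. The 2 stages overlapped over most of their range, and the highest animal exceeded the lowest 5.26-fold at 94 dpc and 10.1-fold at 1 dpn.

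From 28 dpn on MYH2 was high and even. Its signal was 73045, 83734, 61130, 74032, 65059 and 65321 at 28 dpn and 66673, 58084, 75050, 79683, 80848 and 73339 at 188 dpn, in animals 1 to 6. Every array of these 2 stages lay above every earlier array, and within a stage the highest animal exceeded the lowest by 1.37-fold and 1.39-fold. Geometric means were 7754, 7653, 69998 and 71827 in order of age, with SDs of 0.93, 1.17, 0.17 and 0.18 in log2 (n = 6 each). MYH2 ranked 6 to 16 from the brightest at 28 dpn and 3 to 10 at 188 dpn, against 280 to 1907 at 1 dpn and 173 to 937 at 94 dpc. How far signals near the top of the scale are compressed was not tested.

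**Figure D1:**
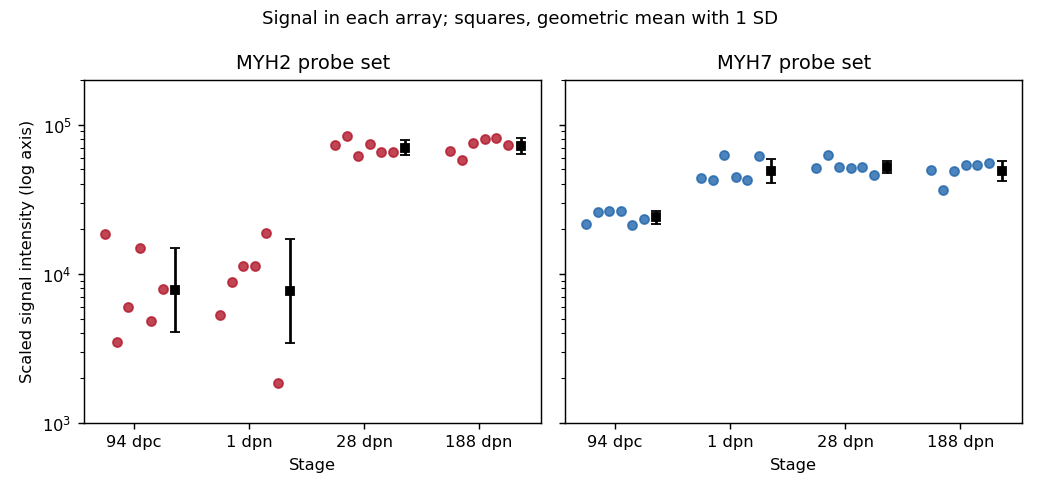
Signal of the MYH2 and MYH7 probe sets (log axis) in each of 24 arrays by stage; circles are animals and squares the geometric mean with 1 SD of log2 (n = 6 per stage). MYH7 is higher in all postnatal arrays than at 94 dpc, whereas MYH2 lies between 1851 and 18637 up to 1 dpn and between 58084 and 83734 from 28 dpn.

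Between 28 dpn and 1 dpn MYH2 rose by 3.19 ± 0.43 in log2 (n = 6 per stage, adjusted p = 1.76e-05, limma). In this comparison 11.6% of all probe sets were called higher and 9.1% lower, 5.59% had all 6 arrays of 28 dpn above all 6 of 1 dpn, and the median difference was 0.02. The difference was 3.10 with quantile normalization, 3.13 with arrays centred on their median and 3.26 without the 3 newborn arrays of low 5′ signal. Leaving out single animals gave 2.78 to 3.45. The spread of MYH2 was unequal between stages, while the fit takes 1 spread for all 4. Fitted on these 2 stages alone, the adjusted p was 0.00149.

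Across birth the MYH2 difference was -0.02 ± 0.43 (1 dpn minus 94 dpc, adjusted p = 0.98, limma), with a 95% interval of -0.90 to 0.86. This interval still holds changes of nearly 1 in log2 either way, and the sign turned with arrays centred on their median (0.31). It rests on 1 spread for all 4 stages. Fitted on these 2 stages alone the SE was 0.57, so the interval is too narrow here. From 28 dpn to 188 dpn the difference was 0.04 (-0.84 to 0.92, adjusted p = 0.973, limma), beside 4.12% of probe sets called higher and 10.5% called lower. For this pair of stages fitted alone the SE was 0.13, not 0.43, so the interval printed is too wide. Against 94 dpc MYH2 was 9.03-fold higher at 28 dpn (3.17 ± 0.43, adjusted p = 7.06e-06, limma) and 9.26-fold higher at 188 dpn (3.21 ± 0.43, adjusted p = 1.92e-06, limma). It was 9.39-fold higher at 188 dpn than at 1 dpn (3.23 ± 0.43, adjusted p = 3.15e-06, limma), where 14.1% of all probe sets were called higher and 7.25% were separated upwards. The order of levels had 94 dpc and 1 dpn together at the bottom and 28 and 188 dpn together at the top, neither pair differing beyond its spread.

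The within-array ratio of MYH2 to MYH7 is free of array scaling and tests whether the 2 chains changed unequally. Levels of 2 probe sets are not comparable, so only its changes count. Its log2 was -0.23, -2.88, -2.14, -0.84, -2.14 and -1.55 in animals 1 to 6 of 94 dpc and -3.06, -2.27, -2.48, -1.97, -1.19 and -5.05 in those of 1 dpn. It ran between 0.24 and 0.54 at 28 dpn and between 0.41 and 0.68 at 188 dpn. The 12 older arrays all lay above the 12 younger ones, and the younger ones were widely spread, with SDs of 1.32 at 1 dpn and 0.97 at 94 dpc.

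**Figure D2:**
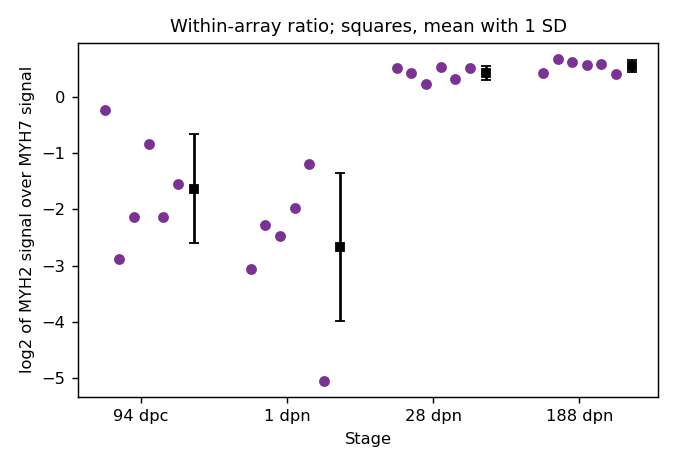
Log2 of the MYH2 signal over the MYH7 signal within each array, by stage; circles are animals and squares the mean with 1 SD (n = 6 per stage). The values at 28 and 188 dpn lie between 0.24 and 0.68, above all values at 94 dpc and 1 dpn, which reach down to -5.05.

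The ratio was 8.56-fold higher at 28 dpn than at 1 dpn (3.10 ± 0.54 in log2, p = 0.00216, 0.00324 adjusted over 6 comparisons, two-sided exact permutation test). That p is the smallest that the 924 splits of 6 against 6 arrays can give. It was also 9.33-fold higher at 188 dpn than at 1 dpn, 4.16-fold higher at 28 dpn than at 94 dpc and 4.53-fold higher at 188 dpn than at 94 dpc, each with the same exact p. Across birth the ratio differed by -1.04 ± 0.67 (exact permutation p = 0.152, adjusted 0.152), and without newborn animal 6 by -0.57. From 28 to 188 dpn it differed by 0.12 ± 0.07 (exact permutation p = 0.0887, adjusted 0.106).

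Animal 6 of 1 dpn joined the lowest MYH2 signal of all 24 arrays, 1851, to one of the highest MYH7 signals of its stage, 61338. Its EF1A ratio was 0.674, like the newborns 4 and 5. Its connective tissue marker sum was 44646, the highest of the 24 arrays, against 16244 to 23794 in the other newborns. The part of this in its MYH2 and MYH7 values was not tested. With stage means removed, the log2 signals of MYH2 and MYH7 correlated with r = -0.20 over the 24 arrays, a weak relation given as a description.

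Genes with the pattern most like each chain were taken from 5729 genes above background, by Pearson correlation of log2 signal over the 24 arrays. These values share the arrays, their scaling and the 4 stages, and are descriptions. Closest to MYH7 were TNNT1, the slow skeletal troponin T (r = 0.98), MYL2, the slow and ventricular regulatory light chain (0.97), CKM, the muscle creatine kinase (0.96), PYGM, the muscle glycogen phosphorylase (0.95), and EIF1, a translation initiation factor (0.95). With stage means removed TNNT1 and MYL2 still stood at 0.91 and 0.86, and the other 3 at 0.66 to 0.76. With quantile normalization TNNT1 was at 0.95, MYL2 at 0.72 and CKM at 0.65.

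TNNT1 had geometric means of 18774, 40273, 48863 and 45006 in order of age, a description of a gene chosen for its likeness to MYH7. Newborn animals 3 and 6 had the highest TNNT1 signals of their stage, 46207 and 54484, as they did for MYH7.

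Closest to MYH2 were SLC37A4, the glucose 6-phosphate transporter of the endoplasmic reticulum (0.94), PHKB, a regulatory subunit of phosphorylase kinase (0.93), AMPD1, the muscle AMP deaminase (0.93), STRADB, a pseudokinase partner of the kinase LKB1 (0.93), and PLEKHB2 (0.93). Their differences between 28 dpn and 1 dpn were 2.94, 2.08, 2.08, 1.74 and 0.87 in that order, given with no test because the genes were chosen for this pattern. Across birth the differences were 0.83, 0.59, 0.25, 0.71 and 0.11, and between 188 dpn and 28 dpn 0.48, 0.88, 0.30, 0.11 and 0.14, all on the log2 scale. SLC37A4 had 341 in newborn animal 6, the animal with least MYH2, against 652 to 1143 in the other 5 newborns, and PHKB had 1196, against 1538 to 2949. The choice of these genes used this array, which favours such a match. AMPD1 and PLEKHB2 had a lower value in another newborn. With stage means removed the correlations with MYH2 were 0.75 for SLC37A4, 0.78 for PHKB and 0.43 to 0.65 for the other 3.

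**Figure D3:**
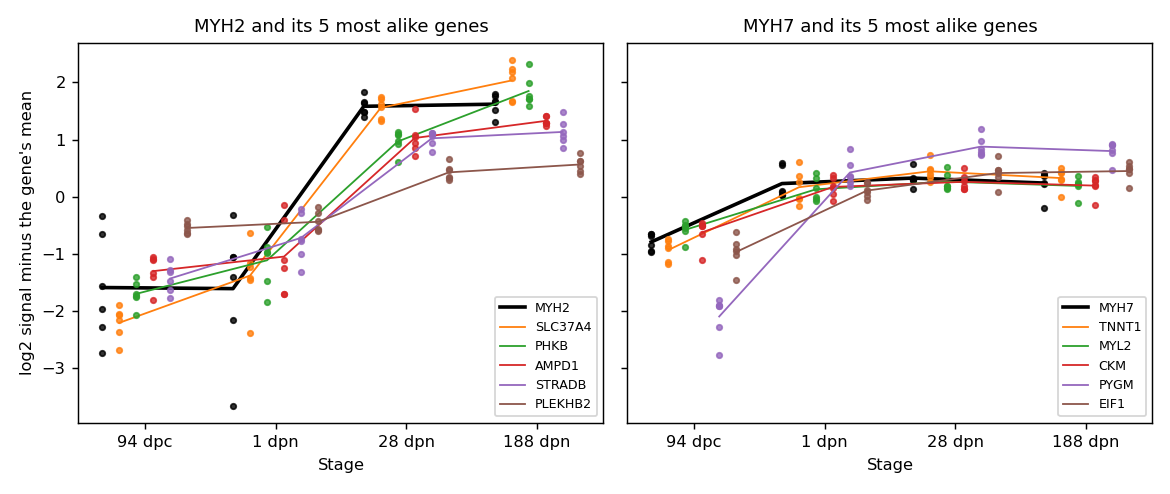
Log2 signal minus the gene's own mean over 24 arrays, for MYH2 (left) and MYH7 (right) with the 5 genes of highest correlation; circles are animals and lines join stage means. The largest step of the 5 genes beside MYH2 is between 1 and 28 dpn, with smaller differences of 0.11 to 0.83 across birth, and that of the 5 beside MYH7 is between 94 dpc and 1 dpn; the lowest circle of MYH2, at -3.66, is animal 6 of 1 dpn.

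Partners of the heavy chains in the thick filament were called both across birth and between 1 and 28 dpn. The list holds light chains, myosin binding proteins, M-band proteins, titin and myosin chaperones, and 14 of its 22 genes were measured. Across birth 5 were higher at 1 dpn and 2 lower, with a median of 0.27 beside -0.15 over all probe sets. Of all probe sets 10.1% were called higher and 20.8% lower there. Under quantile normalization 1 partner was higher and 3 lower, beside 3188 higher and 3496 lower among the 23935 probe sets.

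Among the light chains, MYL3, the slow essential chain, rose across birth and averaged 21491 at 1 dpn and 4853 at 94 dpc (2.15 ± 0.24, adjusted p = 5.88e-07, limma). MYL2 rose by 0.71 ± 0.13 as deposited, and quantile normalization left 0.04 (adjusted p = 0.811, limma). The fast chains MYL1 and MYLPF were higher by 0.60 and 0.65 as deposited, but quantile normalization turned both, to -0.07 and -0.01. MYL4, the embryonic and atrial essential chain, fell to 237 at 1 dpn, against 6286 at 94 dpc (-4.73 ± 0.29, adjusted p = 2.74e-10, limma). Neither MYL3 nor any other light chain was called between 1 and 28 dpn or between 28 and 188 dpn. MYL1, the brightest partner, differed by 0.17 in the first of these comparisons (adjusted p = 0.384, limma) and by -0.07 in the second (adjusted p = 0.796, limma).

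Between 28 dpn and 1 dpn 4 of the 14 were higher and 1 lower, with a median of 0.26 beside 0.02 over all probe sets, of which 11.6% were called higher and 9.1% lower. MYOM2, the M-band protein myomesin 2 that links thick filaments, averaged 35169 at 28 dpn and 9871 at 1 dpn (1.83 ± 0.30, adjusted p = 0.000146, limma). Without the 3 newborn arrays of low 5′ signal its difference was 1.04. MYOM1, myomesin 1, rose by 0.88 ± 0.17 (adjusted p = 0.000763, limma) and TTN, titin, by 0.89 ± 0.17 (adjusted p = 0.000674, limma). TTN was at 0.29 with the mean of all its probe sets (adjusted p = 0.231, limma).

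MYBPC1, the slow myosin binding protein C, averaged 10225 at 1 dpn and 25436 at 94 dpc (-1.31 ± 0.34, adjusted p = 0.00538, limma). It then averaged 31111 at 28 dpn, against 10225 at 1 dpn (1.61 ± 0.34, adjusted p = 0.00187, limma). Without the 3 newborn arrays of low 5′ signal its fall was not called, at -0.30 (adjusted p = 0.292, limma), nor was the later rise, at 0.59 (adjusted p = 0.054, limma). UNC45A, a myosin chaperone, fell by 0.63 between 1 and 28 dpn (adjusted p = 0.0177, limma), and without the same 3 arrays its difference was as large, at -0.71, but not called (adjusted p = 0.051, limma). From 28 to 188 dpn 1 of 14 was called, the chaperone HSP90AA1, which rose by 0.44 ± 0.15 (adjusted p = 0.0442, limma) and was not called at 0.44 with quantile normalization (adjusted p = 0.0565, limma) or at 0.38 without the 188 dpn arrays of high liver signal (adjusted p = 0.252, limma). There the list median was -0.07, beside -0.18 over all probe sets, of which 4.12% were called higher and 10.5% lower.

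Regulators known to act on heavy chain genes or fibre type were measured for 23 of 41 listed. Across birth 1 was higher and 7 lower, at a median of 0.06. Between 28 dpn and 1 dpn 5 were higher and 5 lower, at 0.03, and between 188 dpn and 28 dpn 3 were higher and 2 lower, at 0.23. The medians over all probe sets were -0.15, 0.02 and -0.18 in that order. The shares of all probe sets called higher and lower were 10.1% and 20.8% across birth, 11.6% and 9.1% between 28 dpn and 1 dpn, and 4.12% and 10.5% between 188 dpn and 28 dpn.

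In the interval in which MYH2 rose, regulators were called in both directions, and their part in that rise was not tested. HDAC5 (-1.01), MEF2D (-0.89) and THRA (-0.68) were lower in log2, and MYF6 (1.35) and MEF2A (0.69) higher. With the mean of the gene's probe sets THRA was at -0.10 (adjusted p = 0.767, limma) and MYF6 at 0.26 (adjusted p = 0.701, limma). Leaving out the 3 newborn arrays of low 5′ signal, THRA was not called at -0.51 (adjusted p = 0.0689, limma). Nor was MYF6, at 0.91 (adjusted p = 0.115, limma), while HDAC5, MEF2D and MEF2A stayed called. Both catalytic subunits in the list of calcineurin, the calcium dependent phosphatase upstream of NFAT factors, rose. PPP3CA averaged 3579 at 28 dpn and 858 at 1 dpn (2.06 ± 0.27, adjusted p = 1.33e-05, limma), and PPP3CB averaged 7652 at 28 dpn and 3637 at 1 dpn (1.07 ± 0.16, adjusted p = 5.86e-05, limma). RCAN1, an inhibitor of calcineurin, fell by 1.25 ± 0.32 (adjusted p = 0.00665, limma), and with the mean of its probe sets by 0.09 (adjusted p = 0.933, limma). NFATC1, the transcription factor NFATc1, fell to 19.6 at 28 dpn, under background, against 77.5 at 1 dpn (at least 1.04-fold, adjusted p = 0.0159, limma). TEAD1, which binds muscle gene promoters, averaged 479 at 28 dpn and 174 at 1 dpn, after 332 at 94 dpc. It rose by 1.46 ± 0.30 from 1 dpn (adjusted p = 0.00136, limma), and by the mean of its probe sets was at 1.05 (adjusted p = 0.054, limma). Without the 3 newborn arrays of low 5′ signal its rise was 0.96 (adjusted p = 0.0178, limma).

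Across birth, with the step of MYH7, MEF2D, a MADS box factor of muscle genes, rose by 0.72 ± 0.17 (adjusted p = 0.00261, limma), and without the 3 newborn arrays of low 5′ signal it was at 0.46 (adjusted p = 0.0669, limma). The myogenic factor MYF5 fell to 199 at 1 dpn, against 611 at 94 dpc (-1.62 ± 0.41, adjusted p = 0.00449, limma). SOX6, a repressor of slow fibre genes, was under background at both stages, so no fold is given. PPP3CB differed by 0.26 across birth and was not called (adjusted p = 0.231, limma). It was called lower with the mean of its probe sets, at -0.66 (adjusted p = 0.00974, limma). With arrays centred on their median it was called higher, at 0.59 (adjusted p = 0.00951, limma). PPP3CA and TEAD1 were lower at 1 dpn than at 94 dpc, at -0.71 (adjusted p = 0.0478, limma) and -0.93 (adjusted p = 0.0214, limma). With quantile normalization neither was called (adjusted p = 0.0793 and 0.163, limma). Leaving out the 3 newborn arrays of low 5′ signal, PPP3CA was not called at -0.88 (adjusted p = 0.0598, limma). Nor was TEAD1, at -0.43 (adjusted p = 0.244, limma).

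From 28 to 188 dpn, when neither heavy chain was called, the myogenic factor MYF6 averaged 4922 at 188 dpn and 1371 at 28 dpn (1.84 ± 0.31, adjusted p = 0.000298, limma). MYOD1, which is linked to fast fibres, averaged 266 at 188 dpn and 986 at 28 dpn (-1.89 ± 0.22, adjusted p = 5.71e-06, limma). MEF2A rose by 0.81 ± 0.21 (adjusted p = 0.00942, limma) and PPP3CB by 0.76 ± 0.16 (adjusted p = 0.00212, limma). With the mean of the gene's probe sets MYF6 was at 0.87 (adjusted p = 0.137, limma) and PPP3CB at 0.01 (adjusted p = 0.987, limma), and without the 3 arrays of 188 dpn with high liver signal MEF2A was at 0.70 (adjusted p = 0.116, limma).

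**Figure D4:**
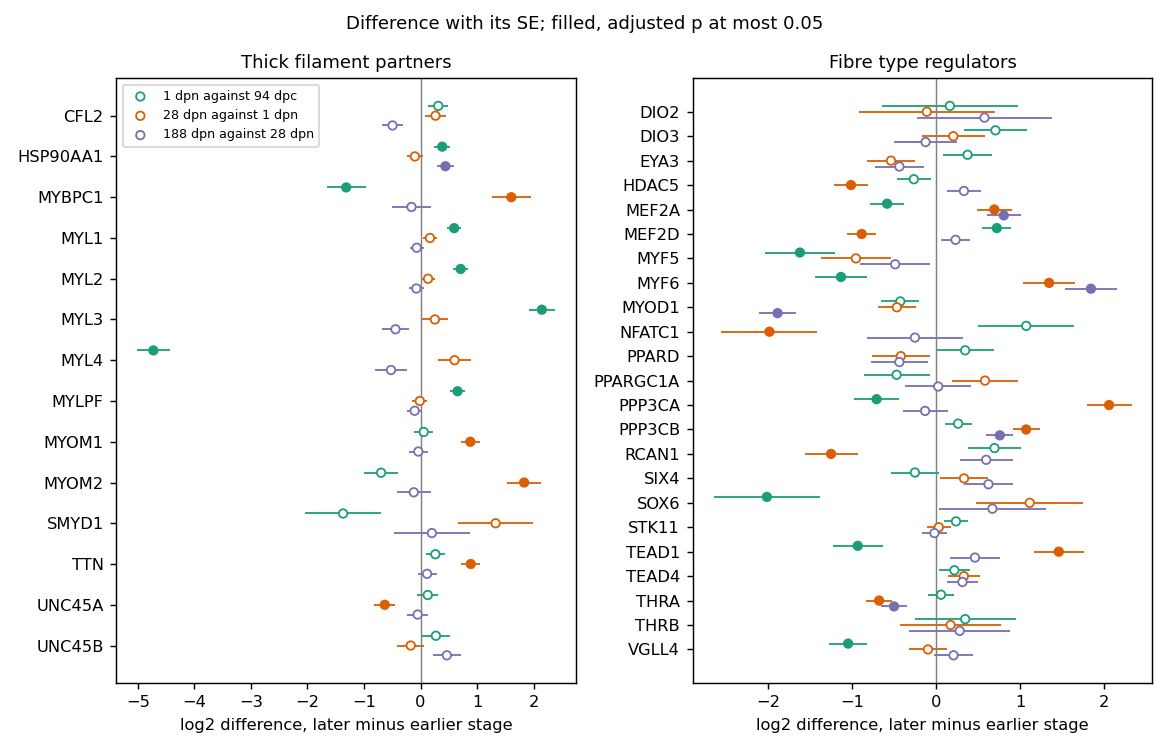
Log2 difference with its SE for the measured thick filament partners (left, 14 genes) and fibre type regulators (right, 23 genes) in 3 successive comparisons of later with earlier stages (n = 6 per stage); filled circles have an adjusted p of at most 0.05. MYL4 and MYL3 were at -4.73 and 2.15 across birth. Between 1 and 28 dpn MYOM2, MYBPC1 and PPP3CA were at 1.83, 1.61 and 2.06, and NFATC1, under background at 28 dpn, was at -1.99. MYBPC1 was not called there without the 3 newborn arrays of low 5′ signal.

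Of 9 other heavy chain genes listed, MYH9 and MYH10, both nonmuscle chains, were measured. MYH9 averaged 4719, 3845, 3265 and 1673 in order of age. It was called between 188 dpn and 28 dpn (-0.96 ± 0.15, adjusted p = 9.93e-05, limma), where the mean of its probe sets gave -0.23 (adjusted p = 0.696, limma). MYH10 had a geometric mean under background at every stage.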

How the data were processed

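Messenger RNA of 24 samples was measured on 1 array each. The authors' deposited values are linear signal intensity per probe set, made with GCOS 1.1.1 per the submitters' processing notes; how arrays were scaled and probes summarised is not given in the sources used here. The mean without 2% at each end was 498 to 499 in each array. Array values have no read depth, and the number of arrays limits precision.

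Values were taken as log2 with nothing added. The 183 control probe sets were left out. Symbols come from the platform annotation of 2016 and 0 changed when updated through gene numbers; 198 tested probe sets have several symbols and 13668 none, and none of these was named. Of several probe sets for a gene, the brightest over all arrays stood for it. Background was the 95th percentile of 17 Tag control probe sets, a signal of 74.7; with 1 stage under this level, the fold printed is a lower bound, and with both under it no fold is printed.

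Stages were compared with limma 3.58.1 in R 4.3.3 (lmFit and eBayes, the data.table package, version 1.17.8) on all 24 arrays, 20 residual degrees of freedom, two-sided, Benjamini-Hochberg over 23935 probe sets, threshold 0.05. The ratio of MYH2 to MYH7, 1 of 9 planned, was tested by exact permutation over samples. The fit and the permutation test were tested on simulated data. The rule for named genes took both chains and the 5 genes most correlated with each chain. It also took up to 4 members a list and comparison by size of a called difference in each direction and brightness. MYLPF, MYOM1, TTN, RCAN1, HDAC5 and THRA were named beyond it, after their values were seen. Members and lists were chosen with earlier results of these data known. Animal numbers follow sample order and carry no pairing. Figures were drawn with matplotlib 3.10.9 (numpy 2.4.6, pandas 2.3.3, Python 3.11.15). Probe sequences, chromosome positions and raw images were not used, so signal of one heavy chain in the probe set of a close paralogue was not tested.

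Alternatives were quantile normalization, centring on the array median, 16 or 64 added before the log2, leaving out the dimmest 30% of probe sets, keeping controls, trend and robust settings, array weights, only the 2 stages compared, the mean of a gene's probe sets, each animal left out, and, added after the data were seen, 3 arrays of 1 dpn or 3 of 188 dpn left out.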

Additional observations from a re-analysis of the deposited data

Results flagged for a closer look

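Within-stage outliers were looked for in 31 genes and ratios at 4 stages, 124 groups of 6 arrays, by the gap of 1 array to its nearest neighbour over the range of the group, set against Dixon's 95% critical value. There were 12. Chance alone gives about 1 in 20 independent groups, but these groups share arrays, and MYL2, CKM and PYGM were chosen for likeness to MYH7. The count therefore cannot be set against that rate. Of the 12, 6 lay in animal 2 of 188 dpn. MYH7 was at 36208 there, against 48705 to 55139 in the other 5, MYL1 at 57352 against 70649 to 77620, MYL2 at 47340 against 58651 to 65794, CKM at 51112 against 64424 to 71736, and PYGM at 39558 against 48298 to 53725. MEF2D was high in the same array, at 3487 against 2628 to 2810. The summed liver marker signal of this array was 226569 and its EF1A ratio 0.524; their part in these values was not tested. MYH2 was at 58084 there, the lowest of its stage, and was no outlier.

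The other 6 were in single genes. MEF2D was at 1940 in animal 3 of 28 dpn, against 2365 to 2596. MYOD1 was at 1506 in animal 1 of 28 dpn, against 843 to 953, and SOX6 was at 88.1 in the same array, against 7.78 to 17.3, the 5 lower values being under background. MEF2A was at 663 in animal 4 of 94 dpc, against 1430 to 1653. CKM was at 26077 in animal 5 of 94 dpc, against 36053 to 41113. NFATC1 was at 81.5 in animal 3 of 188 dpn, against 9.92 to 15.3.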

How the results depend on the processing

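No paired analysis was possible because the labels give no replicate number shared between stages. The 7 differences of MYH2 and MYH7 that were called stayed called in the same direction in all 252 reruns. Uncalled ones changed sign in 17 of 180 reruns: MYH2 across birth was 0.31 with centring and 0.093 with array weights and -0.28 to 0.39 with 1 animal left out, MYH7 from 28 to 188 dpn was 0.18 with centring, 0.059 without the 3 arrays of high liver signal and -0.12 to 0.00035 with 1 animal left out, MYH2 from 28 to 188 dpn was -0.0019 to 0.098 and MYH7 from 1 to 188 dpn -0.031 to 0.097. The ratio kept its side of the threshold in all settings run. Counts of called thick filament partners across birth were 4 with quantile normalization; from 1 to 28 dpn they were 3 without the newborn arrays of low 5′ signal; from 28 to 188 dpn they were 0 with quantile normalization, the mean of probe sets or without the arrays of high liver signal, and 2 without the dimmest 30% or the newborn arrays. Counts of regulators were 5 across birth with quantile normalization, 6 from 1 to 28 dpn and 2 from 28 to 188 dpn with the mean of probe sets, and 3 there without the arrays of high liver signal. Of the nonmuscle chains 1 was called across birth with quantile normalization or without the newborn arrays, and 0 from 28 to 188 dpn with the mean of probe sets. Signs turned for HSP90AA1 (-0.21), MYL1 (-0.074) and MYLPF (-0.012) across birth with quantile normalization, for MYF6 (0.29) and PPP3CB (-0.66) across birth with the mean of probe sets, for MYH9 (0.030) across birth with centring, and for MYL1 from 28 to 188 dpn with centring (0.20) and without the arrays of high liver signal (0.0062). The causes were not tested. Among all called probe sets the share of higher ones across birth was 32.8%, 47.7% with quantile normalization and 59.2% with centring, and from 28 to 188 dpn 28.2%, 42.0% and 62.9%.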
